A study of Homo sapiens with 12 samples.

Results

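The comparison described here sets U251 cells that received both a CD44 hairpin and temozolomide against U251 cells that received neither, and asks how far the change is the sum of what each intervention did alone. U251 is an established human glioblastoma line, grown here with fetal bovine serum. The comparison uses 6 of the 12 libraries of the series, 3 of the combined group and 3 of the control group, chosen by their labels. All 12821 genes that passed a low-count filter were tested, of 20289 in the deposited count table. The neither group carried a control hairpin from a lentivirus (shCtrl, genotype given as WT) and DMSO. The combined group carried a lentiviral hairpin against CD44 (shCD44) and 50 µM temozolomide. The knockdown-alone group carried shCD44 with DMSO. The temozolomide-alone group is titled NC, where the neither group is titled shCtrl, and received 50 µM temozolomide. Both groups are described as NC and were read here as carrying the same control hairpin, which the titles do not state. Every group was treated for 24 h, and each had 3 libraries. The labels do not say whether the hairpin cells were 1 clone, how many hairpins were used, or whether the libraries of a group came from separate cultures, so the p-values measure only the spread between these libraries.

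CD44 is a cell surface receptor for hyaluronan and osteopontin that links the extracellular matrix to the actin cytoskeleton, and it is a marker of mesenchymal glioblastoma. Temozolomide is an alkylating drug used against glioblastoma. It methylates DNA bases, and the methylated guanine is read wrongly at replication, which engages mismatch repair and, later, the response to DNA breaks.

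Library totals ran from 13.51 to 24.76 in units of 1e6 estimated counts, so that a floor of 3 counts was 0.121 to 0.222 CPM (counts per 1e6, here scaled by TMM, a normalisation by trimmed means). The first principal component (41.6% of the variance) separated the libraries by hairpin and the second (15.6%) by drug. Of 10 markers of astroglia and glioma lines, VIM, NES, SOX2, SOX9, CD44, FABP7, EGFR and PDGFRA were present, while the defining astrocyte genes GFAP (group means 0.42 to 1.27 CPM) and S100B (0.169 to 0.319 CPM) were near the floor. The immune markers CD3E and AIF1 and the oligodendrocyte markers MOG, MAG and OLIG1 were at 0 in all 12 libraries. Epithelial keratins were present, with EPCAM and CDH1 at or near 0. In bulk RNA, fewer cells of a kind and less RNA per cell cannot be told apart.

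The targeted gene was lower in every library that carried its hairpin. CD44 stood at 1127, 1102 and 1043 CPM in the neither group, at 420.9, 419.2 and 419.1 CPM with knockdown alone, at 850.6, 807.7 and 804.1 CPM with temozolomide alone, and at 319.8, 326.4 and 333 CPM with both. The groups did not overlap, and the drug lowered CD44 in control cells as well as in hairpin cells. The combined log2 change was -1.74 (SE 0.03, edgeR quasi-likelihood test with Benjamini-Hochberg adjusted p = 3.76e-19), against -1.38 for knockdown alone and -0.41 for temozolomide alone, which sum to -1.79. If the single losses added as CPM, 150 CPM would have been left, and if they multiplied, 316 CPM. The observed mean was 326 CPM ± 6.6 (SD, n = 3).

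All sums below are sums of log2 fold changes, so that effects which add on that scale multiply as levels. The departure is the combined log2 change minus the sum of the single ones, and it is the interaction term of the model. The combined, knockdown-alone and temozolomide-alone comparisons share the neither libraries, so their values are given side by side and no overlap or correlation between them is given.

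With both interventions, 3255 genes were called higher than with neither (25.4% of those tested) and 3143 lower (24.5%), at an edgeR adjusted p below 0.05. Of these, 312 were at least 2-fold higher and 260 at least 2-fold lower. On the deposited FPKM with limma these were 69 and 79 genes on log2(FPKM + 1), a scale that shrinks the fold of low genes, and 286 and 179 on log2(FPKM + 0.1). The libraries of the groups did not overlap for 7037 genes (54.9%). Scaling by library totals alone shifted the median of all genes from 0.0132 to 0.117 and the calls to 5053 higher and 2039 lower, so the balance of rises and falls rests on the scaling. Knockdown alone gave 2710 higher (21.1%) and 2748 lower calls (21.4%), and 458 of them were at least 2-fold. Temozolomide alone gave 1505 higher (11.7%) and 2024 lower calls (15.8%), and 91 of them were at least 2-fold. The combined change can be split exactly into a knockdown part, averaged over both treatments, and a drug part, averaged over both hairpins. The knockdown part was the larger for 4446 of the 6398 called genes (69.49%), for 276 of the 312 genes at least 2-fold higher and for 183 of the 260 at least 2-fold lower. Of the 572 strongly changed genes 214, 73 higher and 141 lower, reached 2-fold with both interventions while neither single change did.

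Departures from the sum were called for few genes: 56 above (0.437% of those tested) and 79 below (0.616%). Without adjustment, 2279 genes had p below 0.05 for the departure. The number called depended on single libraries. Leaving out 1 library gave 19 (temozolomide replicate 2), 28, 56 and 41 (knockdown replicates 1, 2 and 3), 31 (temozolomide replicate 3), 32 (neither replicate 1) and 79 (combined replicate 1). It gave 283 without neither replicate 2, 401 without combined replicate 3 and 412 without temozolomide replicate 1. With limma on log2(FPKM + 1) 3 departures were called, with 1735 at unadjusted p below 0.05. A call was missing for most genes, which does not by itself show that the effects added. The 95% interval of the departure lay within 1.5-fold of no departure for 9886 genes (77.11%). For the 572 genes that changed at least 2-fold the intervals were wider, and 151 of them (26.4%) lay within 1.5-fold. The median SE of a departure was 0.0989 on the log2 scale, against 0.0706 for a combined effect. Over all genes the median departure was 0.01. Among strongly changed genes it was -0.15 for those higher and -0.05 for those lower.

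**Figure D1:**
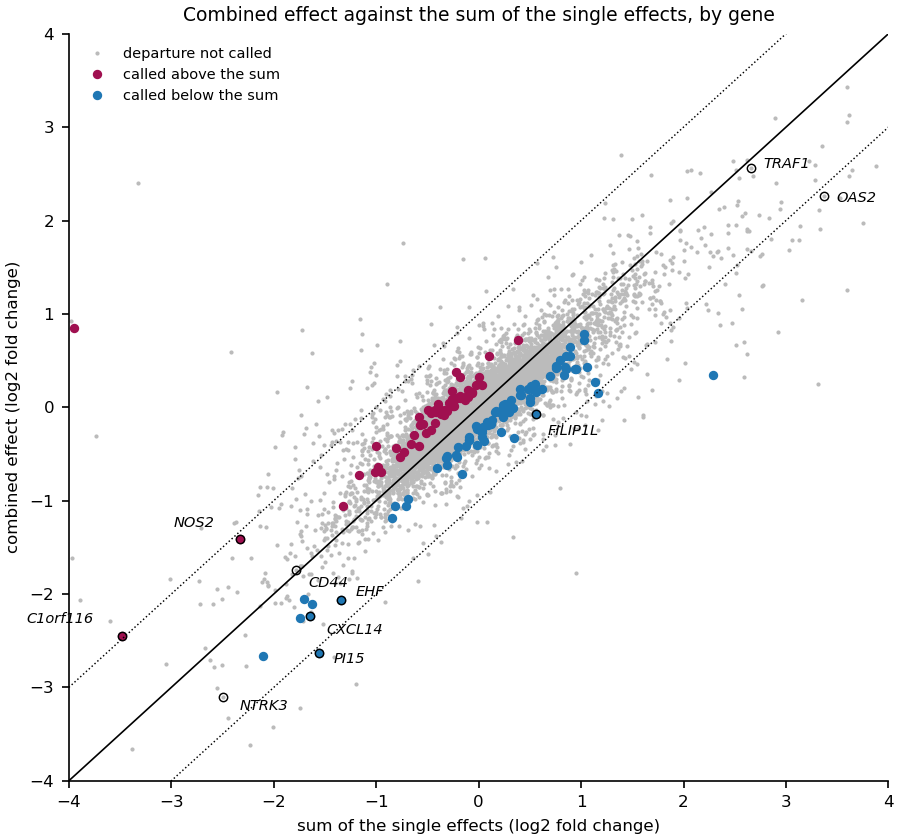
Combined log2 fold change (y axis) against the sum of the single log2 fold changes (x axis) for each tested gene. The solid line marks equality and the dotted lines a departure of 1, coloured points are the called departures (56 above, 79 below), circled points are named genes, and 21 genes beyond 4 on either axis are not drawn. The values on both axes share the control libraries. Most coloured points lie within 1 of the line, CD44 lies on it, and PI15 lies just beyond the lower dotted line.

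The same genes can be read as levels. For 189 of the 260 strong falls the combined mean CPM was nearer to the product of the single effects than to the sum of the CPM changes, and for 33 of them adding the CPM losses would have left 0 or less. For the strong rises it was nearer to the CPM sum in 200 of the 309 that had an expected level and to the product in 109. The median ratio of the observed to the multiplied level was 0.907 for the rises and 0.962 for the falls. These are descriptions of fitted means with no test.

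Several genes were lowered by each intervention alone and further by both. PDGFRA, a receptor tyrosine kinase for platelet-derived growth factor that is often amplified in glioma (chr4:54229097-54298247, GRCh38), was at 346.6, 359 and 340.2 CPM with neither. It was at 187.7, 194.2 and 200.6 CPM with knockdown, 186.1, 187.7 and 195.9 CPM with temozolomide, and 109.3, 104.1 and 108 CPM with both. The neither libraries were highest and the combined ones lowest, with no overlap, while the single interventions overlapped each other. The combined change was -1.70 (SE 0.04, edgeR adjusted p = 1.22e-18), the single changes were -0.84 and -0.88, and the departure was 0.02 with a 95% interval of -0.09 to 0.13. CDH5, which encodes VE-cadherin, went from 41.06, 46.17 and 45.06 CPM to 12.15, 12.47 and 13.13 CPM, with a sum of -1.71 and a combined change of -1.81 (edgeR adjusted p = 6.59e-14). Of the 8 endothelial markers 5 (PECAM1, VWF, CLDN5, TIE1 and ERG) were under 1 CPM in every group mean. NTRK3, the receptor for neurotrophin 3, fell from 9.409, 11.67 and 10.63 CPM to 0.9579, 1.242 and 1.507 CPM, a log2 change of -3.10 (SE 0.19, edgeR adjusted p = 4.21e-12) against a sum of -2.50. Its departure of -0.61 was not called (adjusted p = 0.194, edgeR).

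In the other large falls of AOC1, TMEM100, MUC5B and ALPP the hairpin alone had the larger single effect. In EDN2 and C1orf116 the single effects were close, and their difference was not tested. In C1orf116 they were -1.66 (SE 0.15) for knockdown and -1.83 (SE 0.15) for temozolomide. AOC1, which oxidises histamine and other diamines, was at 148, 162.6 and 171.5 CPM with neither and at 26.4, 28.29 and 25.91 CPM with both. The knockdown alone took it to 36.02, 35.65 and 36.35 CPM, and its combined change was -2.58 against a sum of -2.68. TMEM100 fell by 2.78, with -1.84 for knockdown alone and -0.74 for temozolomide alone. EDN2, an endothelin peptide, fell by 2.76, with -1.17 (SE 0.25) and -1.33 (SE 0.25). MUC5B, a gel-forming mucin, fell by 2.10, with -1.58 and -1.01. ALPP, a placental alkaline phosphatase, changed by -3.66 (SE 0.26), but its close copies make the assignment of its reads uncertain. The near-identical genes NXF2 and NXF2B cannot be read singly. In the neither group all but a trace of their counts stood on NXF2B (17.44, 14.26 and 14.04 CPM), and in the combined group all stood on NXF2 (12.93, 11.85 and 11.48 CPM), while in both single groups some libraries fell on one copy and some on the other. No fold is given for them.

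The largest rises were already present with the hairpin alone. TRAF1, an adaptor of the tumour necrosis factor receptors, went from 1.119, 1.393 and 0.5287 CPM with neither to 6.885, 5.59 and 5.239 CPM with both, a log2 change of 2.56 (SE 0.25, edgeR adjusted p = 8.39e-09). Knockdown alone gave 2.83 and temozolomide alone -0.17. NAV3, a microtubule-binding protein, changed by 2.64, CORO2B, a coronin of the actin cytoskeleton, by 2.46, DMBT1 by 2.53 and GBP3 by 2.31, and in none of them was the departure called. RAB3B, a GTPase of regulated secretion, was at 3.027, 1.725 and 2.35 CPM with neither and at 10.72, 9.222 and 9.833 CPM with both, and its combined change of 2.06 was below the sum of 2.73 without a called departure. PPM1E, a protein phosphatase, changed by 2.08 against a sum of 2.60. RGS4, which speeds the shut-off of G protein signals, changed by 1.93 (SE 0.26). These genes were low in the neither group and their departure intervals were wide, from -0.83 to 0.63 for TRAF1.

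Where the single effects opposed each other, the outcome differed from gene to gene. TXNIP, an inhibitor of thioredoxin that also limits glucose uptake, was at 12.63, 11.48 and 13.57 CPM with neither, 8.255, 6.637 and 6.253 CPM with knockdown, 21.25, 20.93 and 19.03 CPM with temozolomide, and 12.69, 12.76 and 9.474 CPM with both. The combined libraries overlapped the neither libraries, and the change of -0.10 (SE 0.12) was not called. FAM171B (0.08) and C9orf72 (-0.05) likewise stood near their starting level after changes of opposite sign, neither of them called. KMO, an enzyme of tryptophan breakdown, was raised by knockdown (1.25) and lowered by the drug (-1.91), and stood at 2.455, 1.672 and 2.44 CPM with both against 4.014, 3.715 and 3.525 CPM with neither (-0.80, edgeR adjusted p = 0.000929). The call on KMO was lost on FPKM values, where its limma adjusted p ran from 0.0557 to 0.109. CCL2, a monocyte attractant, ended lower as well, at 11.67, 10.37 and 11.27 CPM against 17.17, 14.06 and 16.04 CPM (-0.51, edgeR adjusted p = 0.000462). ADAM19, a membrane metalloproteinase, was at 34.94, 35.42 and 32.78 CPM with neither, 115, 119.1 and 110.1 CPM with knockdown, 25.3, 22.62 and 24.24 CPM with temozolomide and 89.09, 76.12 and 82.54 CPM with both. The combined libraries lay between those of knockdown alone and those of the neither group, and the change was 1.26 (SE 0.06, edgeR adjusted p = 3.62e-13) against a sum of 1.23. CYB5R2 rose by 1.24 although the single changes of 1.71 and -1.64 sum to 0.07, and its departure of 1.17 was not called (adjusted p = 0.0701, edgeR).

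**Figure D2:**
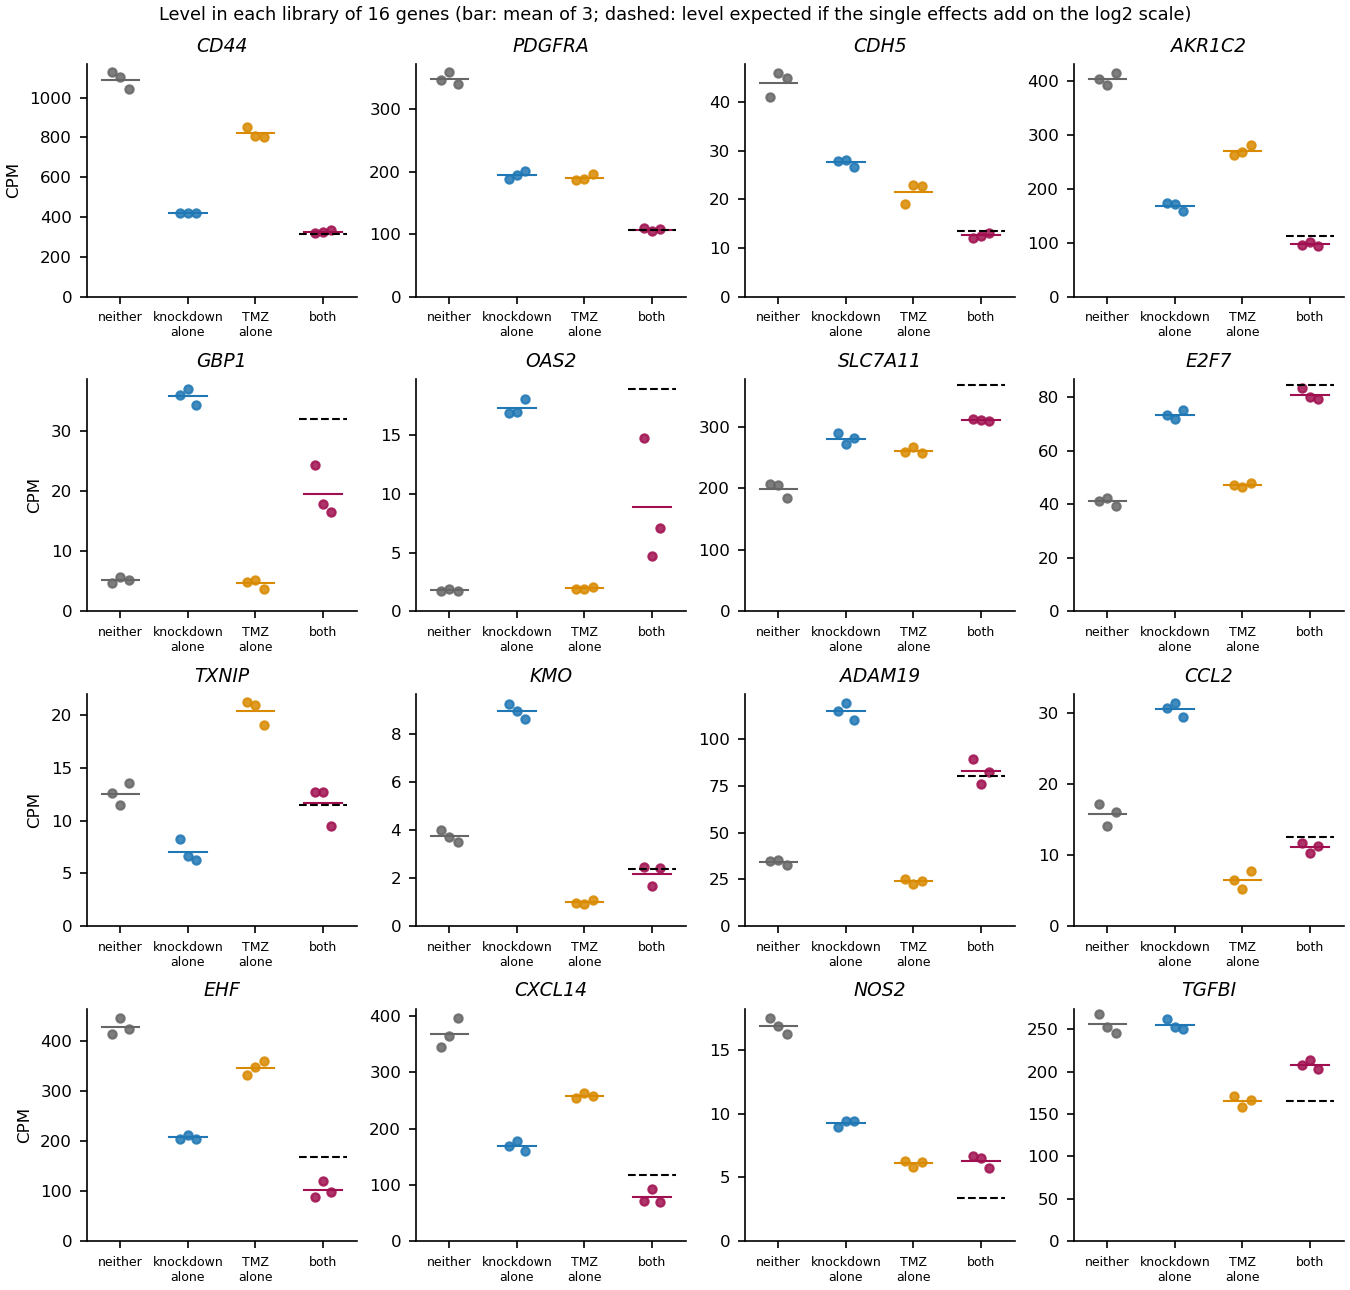
Level in CPM (y axis, from 0) of 16 genes in each library of the 4 groups. Points are libraries, bars are means of 3, and the dashed line over the combined group is the level expected if the single effects add on the log2 scale. The combined libraries lie around the dashed line for PDGFRA and TXNIP, just above it for CD44, below it for EHF, CXCL14 and OAS2, and above it for NOS2 and TGFBI.

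Departures below the sum included genes that each intervention lowered. EHF, an epithelial ETS transcription factor (chr11:34621093-34661057, GRCh38), was at 414.4, 446.3 and 423.1 CPM with neither, 204.7, 212.9 and 205 CPM with knockdown, 332.9, 347.4 and 360.6 CPM with temozolomide, and 89.09, 119.4 and 97.32 CPM with both. It fell by 2.06 with both, against a sum of -1.35. The departure was -0.71 (SE 0.09, edgeR adjusted p = 0.00073). CXCL14, a chemokine of epithelia, was at 345.5, 364.4 and 396.6 CPM with neither and at 71.6, 92.7 and 69.4 CPM with both, with a departure of -0.59 (SE 0.10, edgeR adjusted p = 0.00868). The direction of the CXCL14 departure depends on the scale: its observed mean of 77.9 CPM was below the multiplied level of 118 CPM and above the CPM sum of 58.4 CPM. KRT14, a basal keratin, was at 55.98, 65.8 and 65.53 CPM with both, a mean likewise between its CPM sum (41.6) and its product (79.6). PI15, a secreted protease inhibitor, fell from 21.58, 21.96 and 25.2 CPM to 3.233, 4.491 and 3.158 CPM, a change of -2.63 where the sum was -1.56, giving a departure of -1.07 (SE 0.18, edgeR adjusted p = 0.00657). EHF stood below its CPM sum of 127 CPM as well as below its product of 168 CPM, while PI15 stood near its CPM sum of 3.92 CPM. FILIP1L rose with knockdown alone, to 29.16, 32.14 and 31.22 CPM from 20.92, 20.7 and 20.5 CPM, and stood at 19.46, 21.84 and 17.44 CPM with both, where its libraries overlapped the neither group. TGFB2, a transforming growth factor ligand, was likewise higher with knockdown alone (0.20) and lower with both (-0.41).

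Departures above the sum included genes whose combined fall was smaller than the summed one. NOS2, the inducible nitric oxide synthase (chr17:27756766-27800499, GRCh38), was at 17.5, 16.85 and 16.27 CPM with neither, 8.987, 9.403 and 9.405 CPM with knockdown, 6.294, 5.807 and 6.206 CPM with temozolomide, and 6.646, 6.498 and 5.742 CPM with both. The combined libraries overlapped those of temozolomide alone and lay below those of knockdown alone, and the departure was 0.91 (SE 0.14, edgeR adjusted p = 0.00505). TGFBI, a matrix protein induced by transforming growth factor beta, was not called with knockdown alone, was lowered by temozolomide to 171.8, 157.9 and 166.8 CPM, and stood at 208.3, 213.9 and 202.9 CPM with both, against 268.8, 253.1 and 246.1 CPM with neither. Its departure was 0.34 (SE 0.06, edgeR adjusted p = 0.00783). PLEKHG5, a guanine nucleotide exchange factor, had a departure of 0.59, and C1orf116, which fell by 2.45 where the sum was -3.48, one of 1.03. EMP1 and UPP1 were higher with both (0.55 and 0.37) although temozolomide alone lowered them. Knockdown alone raised EMP1 by 0.58, to a mean of 146 CPM, against 144 CPM with both.

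The called departures moved with base composition. The median GC content of the longest transcript was 59.1% for genes called above the sum and 39.0% for those called below, against 47.9% for all genes. Over all genes the median departure ran from -0.104 below 40% GC to 0.145 above 60%. To compare libraries, each gene's log2 CPM was set against its own mean over the 12 libraries. The mean deviation of genes above 60% GC minus that of genes below 40% was 0.071 to 0.213 in the neither group. It was -0.1 to -0.04 with knockdown, -0.125 to 0.044 with temozolomide and -0.121 to 0.075 with both. After each library was corrected for this trend, 33 departures were called, 27 of them among the 135. EHF (-0.66), CXCL14 (-0.62), PI15 (-0.89), FILIP1L (-0.57), SOD2 (-0.24), NOS2 (0.83), TGFBI (0.31) and PLEKHG5 (0.46) were called with the correction and in each of the 12 fits that left out 1 library. With limma, NOS2 alone of them was called on log2(FPKM + 1), and no gene was called on log2(FPKM + 0.1). PXN was called in those 12 fits and not with the correction. KRT14 and EMP1 were called with the correction and in 6 and 7 of the 12 fits. The calls on C1orf116 (1.00, edgeR adjusted p = 0.106), UPP1 (0.59, adjusted p = 0.0541) and TGFB2 (-0.19, adjusted p = 0.189) were lost with it. The part of base composition in the departures was not tested further.

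**Figure D3:**
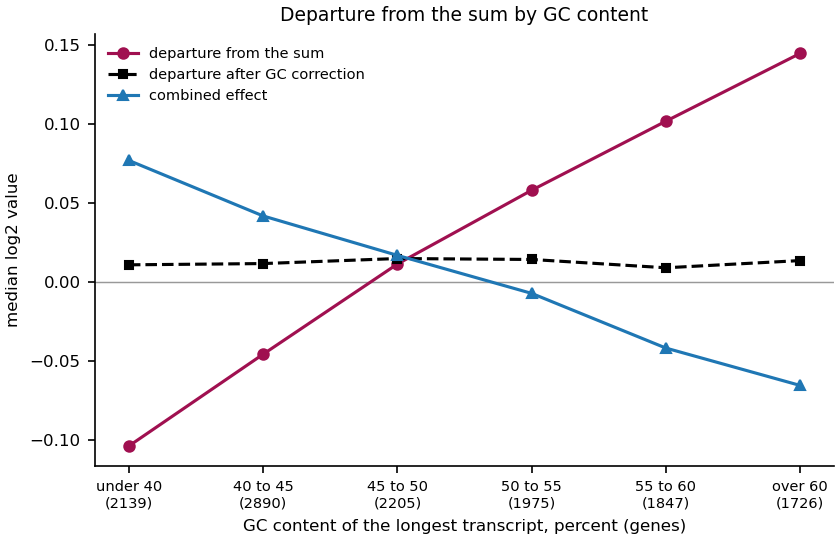
Median departure from the sum, median departure after correction for GC content, and median combined effect (y axis, log2) in 6 classes of transcript GC content (x axis, with the number of genes). The departure climbs from -0.104 to 0.145, the corrected one stays near 0.01, and the combined effect declines from 0.0771 to -0.0656.

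The counts given for each list stand beside 25.4% of all tested genes called higher with both and 24.5% called lower. Interferon-stimulated genes had the largest combined median of the 23 pathway lists. Of 52 tested, 43 rose and 4 fell with both interventions, with a median log2 change of 0.82 against 0.01 for all genes. Knockdown alone gave a median of 1.19 and temozolomide alone 0.00, and the median departure was -0.37, with 46 of 52 departures below 0 (6239 of 12821 for all genes) and 3 of them called. GBP1, a guanylate-binding GTPase against intracellular pathogens, was at 4.672, 5.704 and 5.228 CPM with neither, 35.95, 36.94 and 34.27 CPM with knockdown, 4.891, 5.262 and 3.805 CPM with temozolomide, and 24.37, 17.92 and 16.44 CPM with both. It rose by 1.91 (SE 0.15, edgeR adjusted p = 3.5e-10), against 2.78 for knockdown alone, and its departure of -0.71 was not called (adjusted p = 0.074, edgeR). OAS2, which makes the oligoadenylates that activate RNase L, was at 14.73, 4.73 and 7.106 CPM with both, against 1.777, 1.924 and 1.762 CPM with neither. IFIH1, the sensor MDA5 of double-stranded RNA, rose by 0.41 where the sum was 0.94, a called departure of -0.54 (edgeR adjusted p = 0.0426). That call was made in 4 of the 12 fits that left out 1 library, and it was lost with the GC correction (-0.49, edgeR adjusted p = 0.127). EIF2AK2, the kinase PKR, stood at 266.5, 215.1 and 221.4 CPM with both and overlapped the neither libraries at 213.3, 224.1 and 188.9 CPM. PLSCR1, a phospholipid scramblase, fell by 0.75 (edgeR adjusted p = 6.08e-08), from 61.52, 62.02 and 55.75 CPM to 42.15, 31.97 and 32.58 CPM. Replicate 1 of the combined group stood apart: the median list level over the neither group was 1.167 there and 0.497 and 0.607 in the others. With knockdown alone the libraries stood at 1.101, 1.235 and 1.11. Combined replicate 1 lay within that range, and only combined replicates 2 and 3 lay below it, so the negative median departure rests on them. Without combined replicate 1, 38 rose and 5 fell, and the median change was 0.563.

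Since this group moved together, its promoters were searched for the interferon-stimulated response element, spelled GAAA, any 2 bases, GAAA, on either strand, in windows of 250 bases before to 50 bases after the start site (RefSeq, GRCh38.p14). A match was present in 29 of the 41 tested interferon genes that had a window (70.7%), in 24 of 35 that rose (68.6%) and in 5 of the 6 others (83.3%), against 292 of 10275 tested genes (2.84%) and 996 of 27305 windows (3.65%). For each gene 60 bases are printed, with 1 match in capitals. They show 1 gene that rose strongly, 1 that rose with a called departure below the sum and 1 that fell. They read 5′ to 3′ on the gene's strand, which is the minus strand for all of them. They lie at chr1:89065301-89065360 for GBP1, chr2:162318685-162318744 for IFIH1 and chr3:146544652-146544711 for PLSCR1.
GBP1: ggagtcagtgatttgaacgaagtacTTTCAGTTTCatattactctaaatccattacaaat
IFIH1: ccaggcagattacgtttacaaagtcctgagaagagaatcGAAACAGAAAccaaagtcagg
PLSCR1: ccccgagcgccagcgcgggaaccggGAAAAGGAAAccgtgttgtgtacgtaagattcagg
The printed match began 127 bases before the start site in GBP1, where it reads on the opposite strand, 21 bases before it in IFIH1 and 79 bases before it in PLSCR1. The IFIH1 window held 3 matches, of which the last before the start site is printed. Those of GBP1 and PLSCR1 held 1 each. Each is a match of letters and no evidence of binding.

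NF-kB drives inflammatory genes and cytokines. Over all tested genes 25.4% rose and 24.5% fell. Of 29 such genes tested, 14 rose and 2 fell, with a median of 0.55 (0.95 for knockdown alone, -0.16 for temozolomide alone). SOD2, the mitochondrial superoxide dismutase, was at 132.8, 129.9 and 140.6 CPM with neither, 219.4, 217.8 and 220 CPM with knockdown, 147.3, 145.1 and 155 CPM with temozolomide, and 190.7, 194.3 and 203.9 CPM with both. Each single effect raised it, and the combined libraries lay below those of knockdown alone and above those of temozolomide alone, with a departure of -0.31 (SE 0.05, edgeR adjusted p = 0.0111). TNFAIP2 fell by 1.40. In antigen presentation 12 of 23 genes rose and 3 fell, with a median of 0.20. CD274, the ligand PD-L1, rose from 4.08, 3.98 and 3.113 CPM to 13.17, 12.57 and 10.34 CPM (1.70, edgeR adjusted p = 8.52e-09).

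Lists of protein synthesis and energy metabolism held more falls than rises, where 25.4% of all tested genes rose and 24.5% fell. All 79 cytosolic ribosomal protein genes were lower with both, with a median log2 change of -0.46 (-0.36 for knockdown, -0.05 for temozolomide). RPL3 went from 1461, 1381 and 1524 CPM to 1031, 1036 and 1025 CPM, with a departure of 0.00 and an interval of -0.09 to 0.10. RPS28 fell by 1.20. Ribosomal protein genes have many processed copies, so single values are uncertain. Of 70 nuclear genes of oxidative phosphorylation 49 were lower and 0 higher (median -0.27), and of 13 mitochondrial ones 12 were lower and 0 higher (median -0.26). For hypoxia and glycolysis 31 of 40 were lower and 3 higher, with a median of -0.36 where the single medians were -0.21 and -0.16. NDRG1, a hypoxia-induced stress gene, fell from 181.3, 190.5 and 192.4 CPM to 60.83, 65.27 and 61.15 CPM, a change of -1.59 against a sum of -1.54. Of 33 genes of cholesterol and fatty acid synthesis 18 fell and 3 rose. DHCR7, the last enzyme of cholesterol synthesis, was at 270.9, 276.7 and 274.3 CPM with neither and 152.3, 147.6 and 143 CPM with both. SCD, the desaturase of stearate, fell by 0.80.

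Mitotic genes changed by small amounts. Among all tested genes 25.4% rose and 24.5% fell. Of 60 genes of G2/M and mitosis 38 rose and 5 fell with both, with a median of 0.18 against 0.07 for each intervention alone. CKAP2L, a spindle protein, was at 94.95, 98.43 and 98.46 CPM with neither, 125.4, 120.5 and 121.5 CPM with knockdown, 114.4, 125 and 118.6 CPM with temozolomide, and 141.9, 142.3 and 145.4 CPM with both. Its change was 0.56 (SE 0.04, edgeR adjusted p = 1.59e-10), with a sum of 0.62. HMMR, a hyaluronan-binding spindle protein, rose by 0.54. MKI67 was lower by 0.10 (adjusted p = 0.0122, edgeR), which was not called when scaled by totals only (-0.000429), on FPKM values, without replicate 2 of the neither group and without replicate 1 of the combined group. Of 49 genes of G1/S and replication 14 rose and 21 fell (median -0.06, and with library totals alone 19, 13 and 0.04). E2F7, a repressive E2F, rose by 0.98, and E2F2, an activating one, fell by 0.81.

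Lists of DNA repair had medians near that of all genes. The counts in this paragraph stand beside 25.4% of all tested genes that rose and 24.5% that fell. CDKN1A, the cell cycle inhibitor p21, was at 30.93, 30.25 and 30.19 CPM with neither and 35.98, 32.97 and 35.6 CPM with both, a change of 0.19 (SE 0.06, edgeR adjusted p = 0.0121) that was not called without replicate 1 of the combined group. MDM2, a ubiquitin ligase, rose by 0.20 with both, against 0.19 and 0.21 with each alone, and its departure of -0.20 was not called (adjusted p = 0.118, edgeR). In alkylation, mismatch and base excision repair 5 of 30 rose and 11 fell (median 0.00, and with library totals alone 9, 6 and 0.10), and MSH6, which recognises mismatches, fell by 0.19. MGMT, the enzyme that removes the methyl group from guanine, did not pass the filter. For double-strand breaks and crosslinks 16 of 50 rose and 8 fell. In the unfolded protein and integrated stress response 10 of 40 rose and 19 fell, a balance that turned to 15 and 9 with library totals alone. ATF3 rose by 1.21 (sum 1.39), and HYOU1, a chaperone of the endoplasmic reticulum, fell by 0.90. Of 28 NRF2 targets 7 rose and 14 fell (median -0.03, and with library totals alone 12, 9 and 0.08). NQO1 and SLC7A11, the cystine carrier, rose by 0.52 and 0.64, and AKR1C2, whose close copy AKR1C1 makes its value uncertain, fell by 2.06. In the BCL2 family 5 of 13 rose and 6 fell (5 and 5 with library totals alone), with BMF lower by 1.78 and BCL2L1 by 0.65.

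In several lists of adhesion, matrix and growth signals the single medians had opposite signs. Their counts stand beside 25.4% of all tested genes that rose and 24.5% that fell, and no list was tested as a set. Among 30 targets of the YAP and TAZ coactivators, 15 rose and 6 fell, with a median of 0.16 (0.31 and -0.16 alone). NT5E, the ectonucleotidase CD73, rose from 27.44, 24.14 and 21.03 CPM to 100.1, 76.5 and 87.56 CPM, by 1.86 (SE 0.09). For the MAPK response 18 of 33 rose and 6 fell, with a median of 0.27, and FOSL1 and ETV5 rose by 1.09 and 1.06. For collagens and matrix 15 of 48 rose and 17 fell, with a median of -0.05, where knockdown alone gave 0.10 and temozolomide alone -0.29. With library totals alone 18 rose and 14 fell, with a median of 0.05. FBN2, a microfibril protein, fell from 988.8, 1066 and 954.7 CPM to 281.7, 294.2 and 295.3 CPM, by 1.79 against a sum of -1.82. POSTN fell by 1.32 and LAMB1 rose by 0.96. For integrins and focal adhesion 12 of 36 rose and 10 fell, with a median of 0.00, and for metalloproteinases and their inhibitors 10 of 26 rose and 8 fell. ADAM12 rose by 0.89 and TIMP3 fell by 0.99. For the hyaluronan system and partners of CD44 8 of 24 rose and 9 fell (11 and 8 with library totals alone), and SPP1, which encodes the CD44 ligand osteopontin, rose by 0.96. For mesenchymal transition 6 of 24 rose and 12 fell, with a median of -0.12 (7, 8 and -0.02 with library totals alone). VIM was lower by 0.10 (adjusted p = 0.00992, edgeR), and its sign turned with library totals alone (0.00109) and on FPKM values (0.00138). The call on VIM was also lost without replicate 1 of the neither group and without replicate 2 of the combined group.

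Neural stem and glioma factors and epithelial markers fell more often than they rose, while the 3 neuron markers that passed the filter rose. Across all tested genes 25.4% rose and 24.5% fell. Of 21 neural stem and glioma factors 4 rose and 10 fell, with a median of -0.29. SOX2 went from 383.2, 396.9 and 389.7 CPM to 262.1, 279.5 and 283 CPM (-0.50, edgeR adjusted p = 1.2e-10), and SOX4 fell by 1.01. Of 9 neuron markers 3 passed the filter and all 3 rose, with a median of 0.81 (0.55 for knockdown alone, 0.11 for temozolomide alone). The other 6 were under 1 CPM in every group mean and went both ways. From neither to both, RBFOX3 went from 0.343 to 0.175 CPM and SNAP25 from 0.105 to 0.251 CPM. SYT1, a synaptic vesicle calcium sensor, went from 3.948, 3.98 and 4.171 CPM to 8.262, 7.167 and 8.828 CPM, and GAD1, which makes the transmitter GABA, from 4.343, 4.776 and 4.7 CPM to 8.082, 8.171 and 7.967 CPM. MAP2, a dendritic microtubule protein, rose by 0.29. Of 7 tested epithelial markers 6 fell and 0 rose, with a median of -1.23 where the single medians were -0.56 and -0.41. Their summed level was 1680 to 1740 CPM with neither, 1060 to 1180 CPM with knockdown, 1220 to 1270 CPM with temozolomide and 671 to 775 CPM with both. ELF3, an epithelial ETS factor, was at 80.27, 74.03 and 79.48 CPM with neither and at 20.06, 22.51 and 20.1 CPM with both, a change of -1.89 with a departure of -0.01. Endothelial markers summed to 42.9 to 49 CPM with neither and 16 to 17.7 CPM with both, and that sum follows CDH5, its most abundant member. Of the 4 endothelial markers tested 1 rose and 1 fell, with a median of 0.39. The marker that rose was KDR, a receptor for vascular endothelial growth factor, whose group means were 0.169 CPM with neither, within the range of the floors, 1.81 CPM with knockdown, 0.186 CPM with temozolomide and 1.52 CPM with both (edgeR adjusted p = 3.02e-06).

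**Figure D4:**
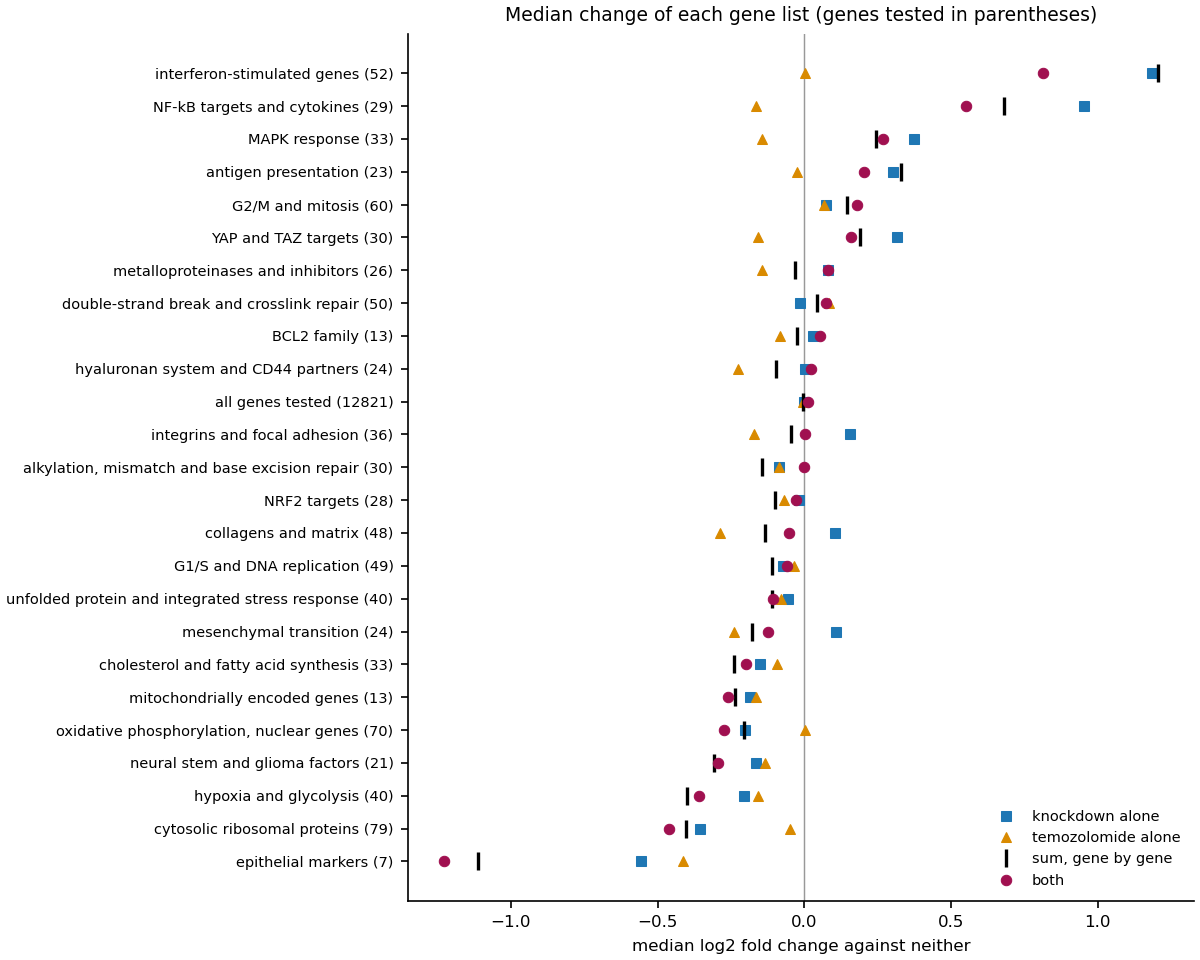
Median log2 fold change (x axis) of each gene list, with the number of genes tested in parentheses, for knockdown alone, temozolomide alone, the gene-by-gene sum of these and both interventions. All comparisons share the control libraries. The combined median of interferon-stimulated genes (0.82) lies below its sum, and those of ribosomal proteins (-0.46) and epithelial markers (-1.23) lie just beyond theirs.

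**Figure D5:**
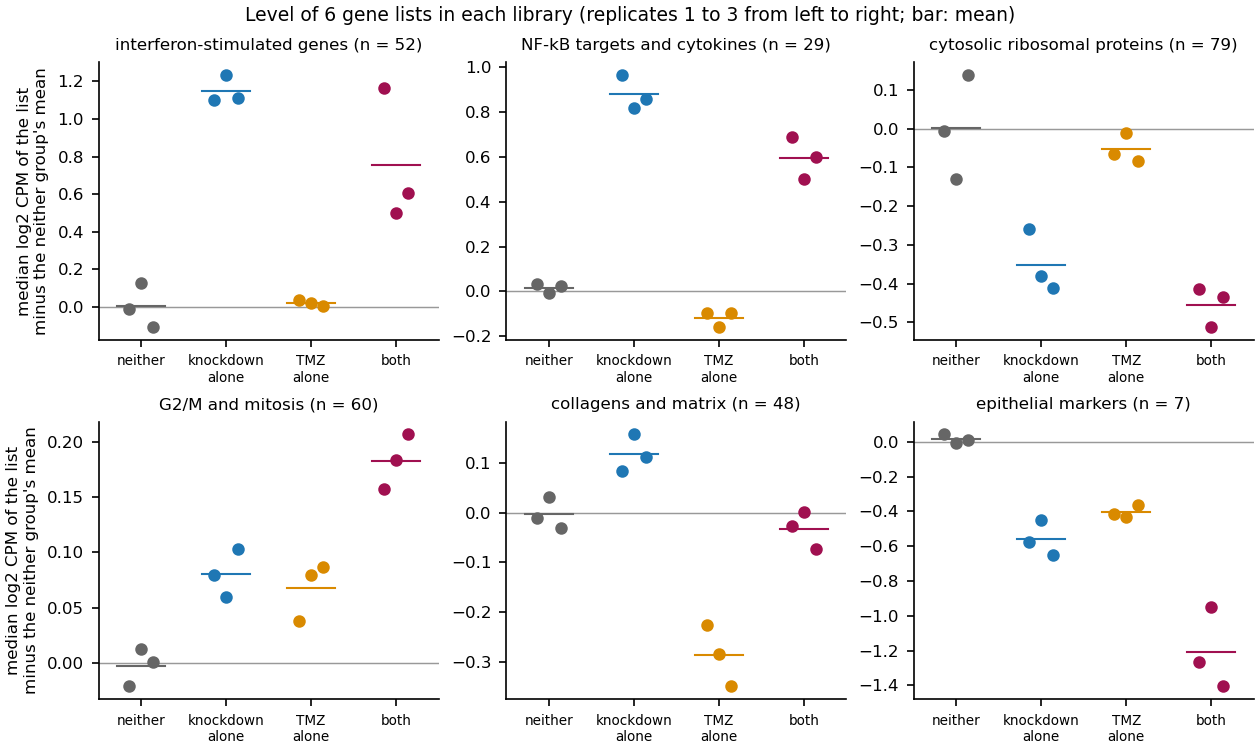
Median log2 CPM of 6 gene lists in each library (y axis, relative to the mean of the neither group) with the 4 groups on the x axis. Points are libraries, replicates 1 to 3 from left to right, and bars are means. Replicate 1 of the combined group (1.167) stands above the others (0.497 and 0.607) for interferon-stimulated genes, and the combined libraries are below every other library for epithelial markers.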

How the data were processed

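Poly(A) RNA of U251 cells was sequenced in 12 libraries. The authors deposited 1 table of estimated counts and 1 of FPKM, each per gene and library. Per the submitters' processing notes, the tools named are RSEM, HISAT2, StringTie 1.3.1, Bowtie2 2.2.8 and fastp 0.18.0. The build, the gene models and the strand setting were not given in the sources used here. Of all deposited estimated counts 10.72% to 12% per library were fractional, and counts were rounded to whole numbers. Genes were kept by filterByExpr over the groups and tested with edgeR 4.0.16 (TMM, quasi-likelihood, R 4.3.3) in 1 model of 4 group means over all 12 libraries, with Benjamini-Hochberg adjustment over all genes tested and calls at adjusted p below 0.05. Departure intervals are 95% intervals from the log2 value and its SE. The fit was tested on simulated data.

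Alternatives were other size factors, library totals alone, DESeq2 1.42.0, other filters, a replicate block, limma 3.58.1 on the deposited FPKM as log2(FPKM + 1) and log2(FPKM + 0.1), a stricter threshold, only the compared groups, and leaving out each library. A correction for GC content by a spline with 5 degrees of freedom per library was chosen after seeing the data. Transcript GC content and gene locations came from GENCODE 29 (GRCh38), joined by gene ID. Same-numbered libraries of different groups had deviations correlated by -0.077 to 0.136 over 18 pairs, so the numbers were not taken as pairs.

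Genes are named by rule: CD44 and 8 others always, the 10 largest called rises and falls and the 8 largest departures each way at a mean of at least 5 CPM, the 4 largest joint or opposing single effects of each kind, and up to 2 genes per list, direction and departure by p-value. KDR and MAP2 were named after their values were seen. The comparison, the rule and the gene lists were chosen with earlier results of these data known. Departures on the CPM scale are values with no test. Some items are not reported here.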

Additional observations from a re-analysis of the deposited data

Results flagged for a closer look

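For 33 of the named genes the effect of both interventions differed from the sum of the single effects, that is, the knockdown effect differed between DMSO and temozolomide (interaction term, edgeR adjusted p below 0.05). Values are departures on the log2 scale. They lie on the genes chosen in part for having one, and across all genes they moved with GC content, whose part was not tested further. With the GC correction 13 of the 33 kept the call and 20 lost it, with adjusted p of 0.0541 to 0.494 (edgeR). Of the 33, 9 were called in each of the 12 fits that left out 1 library, and the other 24 in 3 to 9 of them. With limma on log2(FPKM + 1), NOS2 alone of the 33 was called.

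The 13 that kept the call with the correction were, below the sum, PI15 (-1.07), FILIP1L (-0.63), CXCL14 (-0.59), EHF (-0.71), PRSS35 (-0.51), KRT14 (-0.35) and SOD2 (-0.31), and above it NOS2 (0.91), PLEKHG5 (0.59), EMP1 (0.45), P3H1 (0.35), TGFBI (0.34) and the read-through gene ANKHD1-EIF4EBP3 (0.50), which overlaps its neighbours.

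The call was lost by the others, given here with the corrected value after the first. Below the sum, interferon genes were IFIH1 (-0.54, then -0.49) and EIF2AK2 (-0.40, then -0.29). Genes of adhesion and growth factor signalling were TGFB2 (-0.29, then -0.19), ITGAV (-0.28, then -0.17) and ADAM10 (-0.27, then -0.17). HMGCS1, an enzyme of cholesterol synthesis, had -0.29 and then -0.21, and SLC7A11 -0.25 and then -0.10. RAB33B (-0.63, then -0.52), GAR1 (-0.67, then -0.67), RIPOR2 (-0.55, then -0.54), PCDHB9 (-0.87, then -0.85) and MSANTD3-TMEFF1 (-1.01, then -0.86) were the remaining ones. The values of PCDHB9, with close copies, and of the read-through gene MSANTD3-TMEFF1 are uncertain. Above the sum stood UPP1 (0.59, then 0.59), C1orf116 (1.03, then 1.00), PXN (0.30, then 0.19), ADAM15 (0.22, then 0.08) and GRAMD1A (0.48, then 0.35). In metabolism these were FASN (0.27, then 0.13), the fatty acid synthase, PTDSS2 (0.47, then 0.38), which makes phosphatidylserine, and ENO1 (0.16, then 0.11), a glycolytic enolase.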

How the results depend on the processing

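Among named genes called as reported or in the alternative, the direction of the combined effect turned for VIM alone. It went to 0.00109 with library totals alone and to 0.00138 in each of the 3 FPKM fits. Turns of sign in named genes without a call in either fit were not counted. Over all named genes and settings, 3610 combined values kept their side of the threshold, 66 lost the call and 14 gained it. The 3610 include any turn of sign in a gene called neither as reported nor in the alternative. Of the departures of named genes 442 kept their call, 317 lost it and 0 turned. Library totals alone gave 5053 higher and 2039 lower calls. FPKM values gave 1767 lower calls with a pseudocount of 1, 1763 with 0.1 and 1710 without a filter, and 69 and 79 genes at least 2-fold higher and lower with a pseudocount of 1, filtered or not. Departures numbered 149 below with DESeq2, 187 above and 359 below without a low-count filter, 4 and 9 at adjusted p below 0.01, and 10 and 23 with GC correction. On FPKM they numbered 1 and 2 with a pseudocount of 1 and, by limma, 0 and 0 with 0.1 or without a filter, where 1724 and 1982 genes had unadjusted p below 0.05. With the replicate number as a block they numbered 103 above and 119 below, 134 of the 135 among them. The labels state no pairing, and the numbers were not taken as pairs. For 6 of 12 libraries the strongest correlation with a library of another group was with one of the same number. The causes were not tested.

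Leaving out 1 library gave 2832 to 3263 higher and 2821 to 3150 lower calls, 282 to 324 genes at least 2-fold higher and 246 to 269 lower, and 6 to 222 departures above and 13 to 223 below. Where leaving out a library left 2 in a group, the spread was pooled over all groups.

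List medians are given here minus that of all genes. Leaving out 1 library gave 0.55 to 0.924 for interferon-stimulated genes, 0.472 to 0.661 for NF-kB targets, 0.159 to 0.234 for antigen presentation, -0.537 to -0.405 for ribosomal proteins, -0.334 to -0.2 for oxidative phosphorylation and -0.301 to -0.231 for mitochondrial genes. It gave -0.387 to -0.352 for hypoxia, -0.227 to -0.186 for cholesterol, -0.0961 to -0.0583 for G1/S, 0.157 to 0.181 for G2/M, -0.0435 to -0.00888 for alkylation and mismatch repair and 0.0234 to 0.0664 for break repair. It gave -0.123 to -0.1 for the stress response, -0.0745 to -0.0367 for NRF2, 0.129 to 0.17 for YAP, 0.238 to 0.3 for MAPK, -0.0783 to -0.0259 for collagens, -0.0404 to 0.00699 for integrins and 0.0294 to 0.0815 for metalloproteinases. It gave -0.0364 to 0.0422 for hyaluronan, 0.017 to 0.0651 for BCL2, -0.329 to -0.269 for neural stem factors, -0.158 to -0.126 for mesenchymal transition and -1.41 to -1.15 for epithelial markers.

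Without a low-count filter the median was -0.142 for hyaluronan, -0.0394 for mesenchymal transition and -1.06 for epithelial markers. With at least 1 CPM in 3 libraries it was 0.0134 for NRF2 and -0.103 for BCL2. On log2(FPKM + 1) it was 0.211 for NF-kB, -0.335 for hypoxia, -0.184 for cholesterol, -0.0501 for G1/S, -0.092 for the stress response, -0.0187 for NRF2, 0.115 for YAP, 0.0105 for metalloproteinases, -0.0855 for BCL2, -0.245 for neural stem factors and -0.876 for epithelial markers. On log2(FPKM + 0.1) it was -0.0504 for integrins, -0.106 for BCL2 and -0.183 for mesenchymal transition. On log2(FPKM + 1) without a filter it was 0.218 for NF-kB, -0.386 for ribosomal proteins, -0.179 for oxidative phosphorylation, -0.193 for mitochondrial genes, -0.281 for hypoxia, -0.128 for cholesterol, -0.00145 for G1/S, 0.239 for G2/M, 0.0454 for alkylation and mismatch repair and 0.102 for break repair. There it was also -0.0397 for the stress response, 0.0336 for NRF2, -0.0133 for metalloproteinases, -0.0332 for BCL2, -0.105 for neural stem factors, -0.0317 for mesenchymal transition and -0.697 for epithelial markers. With GC correction it was 0.253 for antigen presentation, -0.339 for hypoxia, -0.165 for cholesterol, 0.207 for YAP, 0.00616 for collagens and -0.273 for neural stem factors.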
